A study of Mus musculus with 4 samples.

Results

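The genes of the mitochondrial respiratory chain and ATP synthase were compared between CD11b+ cells from the spleens of socially threatened and control mice, the threat having been repeated. They were taken as all gene symbols of the array annotation that start with Ndufa, Ndufb, Ndufc, Ndufs, Ndufv, Uqcr, Cox4, Cox5, Cox6, Cox7 or Atp5, pseudogenes left out, and each gene was read by its brightest probe set that carries a single symbol. This gave 83 of the 18193 genes on the array. By symbol prefix, 36 were counted as subunits of complex I, 8 of complex III, 14 of complex IV and 17 of complex V. The other 8 were assembly factors of complex I. Ndufa4, now known as a subunit of complex IV, and its paralog Ndufa4l2 were counted under complex I by this rule. The RNA came from 2 pools of socially threatened mice (environment HighThreat) and 2 pools of control mice (LowThreat), each pool from 5 mice and hybridised to 1 Affymetrix MOE430 2.0 array. Both groups were CD11b+ cells of the spleen, and strain, age and genotype are not given in the sources used here. All levels are log2 expression made with RMA, and a fold change is the social threat mean minus the control mean on that scale.

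The respiratory chain sits in the inner mitochondrial membrane. Complex I (NADH dehydrogenase) takes electrons from NADH, complex II takes them from succinate, complex III passes them from ubiquinol to cytochrome c, and complex IV (cytochrome c oxidase) hands them to oxygen. Complex V, the ATP synthase, uses the proton gradient that complexes I, III and IV build to make ATP from ADP and phosphate. Most subunits are encoded in the nucleus, and many of their promoters are known to bind the transcription factors NRF1 and GABP. Mature neutrophils, a main CD11b+ cell type, are known to rely mostly on glycolysis, whereas macrophages and proliferating precursors respire more.

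The upstream sequences of 4 genes are shown because they span the responses described below, from the largest rise (Ndufv3) to a fall (Atp5g2). Each holds the 250 bases before the gene's start in RefSeq, build GRCm38.p6, printed on the strand of the gene, with matches to the NRF1 motif GCGCATGC and the GABP motif CCGGAAG on either strand in capitals. The NRF1 motif can match both strands of a site with an overlap, as in the runs of 10 capitals below.
Ndufv3, chr17:31519865-31520114, plus strand: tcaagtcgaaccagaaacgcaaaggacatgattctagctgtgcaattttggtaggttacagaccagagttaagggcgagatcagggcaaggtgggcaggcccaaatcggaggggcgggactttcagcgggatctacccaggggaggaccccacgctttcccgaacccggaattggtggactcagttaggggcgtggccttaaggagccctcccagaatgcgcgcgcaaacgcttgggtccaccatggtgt
Atp5k, chr5:108434400-108434649, minus strand: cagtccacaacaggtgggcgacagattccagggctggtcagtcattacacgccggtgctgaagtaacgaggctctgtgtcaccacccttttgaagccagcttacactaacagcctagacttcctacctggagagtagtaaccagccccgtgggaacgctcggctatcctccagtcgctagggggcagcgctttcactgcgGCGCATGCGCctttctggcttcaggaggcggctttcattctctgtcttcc
Cox6a1, chr5:115348959-115349208, minus strand: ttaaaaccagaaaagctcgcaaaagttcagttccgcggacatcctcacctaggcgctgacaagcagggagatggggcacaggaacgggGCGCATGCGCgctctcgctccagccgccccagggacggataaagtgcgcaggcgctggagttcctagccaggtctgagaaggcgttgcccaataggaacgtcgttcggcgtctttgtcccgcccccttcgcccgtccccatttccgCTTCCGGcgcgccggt
Atp5g2, chr15:102671048-102671297, minus strand: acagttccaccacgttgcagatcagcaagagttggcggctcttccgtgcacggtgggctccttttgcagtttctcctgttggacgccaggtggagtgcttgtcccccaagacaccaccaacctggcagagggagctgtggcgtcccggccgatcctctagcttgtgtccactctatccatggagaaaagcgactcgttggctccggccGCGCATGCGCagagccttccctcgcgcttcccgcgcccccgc

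Upstream windows were found for 69 of the 83 genes, 74 windows in all. The NRF1 motif stood in 7 of them (9.46%), against 2.26% of all 32851 windows of that length in the table, and the GABP motif in 13 (17.57%), against 6.91%. A YY1 motif, AAGATGGC, stood in 1 of them (1.35%), against 1.56% of all windows. The windows of these genes had a median GC content of 57.6%, against 52.4% for all windows, and the part of base composition in the NRF1 and GABP shares was not tested. The 8 letters of the NRF1 motif were chosen after shares had been seen. A longer form with an open base was searched first and had a larger share in both sets, and it was set aside for a reason of format that did not depend on its shares. A match describes these letters only. The NRF1 motif is in the shown windows of Atp5k, Cox6a1 and Atp5g2, so the windows shown hold it more often than the 74 do. It stood upstream of a gene that rose (Atp5k) and of a gene that fell (Atp5g2). Neither the NRF1 nor the GABP motif stood in the windows of Ndufv3 or of Cox7a2l, the largest called fall.

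Messages of the respiratory chain differed little between the groups, and most of the differences that passed the test were small rises. In limma, with Benjamini-Hochberg adjustment over all 45037 probe sets and a call at an adjusted p under 0.05, 22 of the 83 genes rose, 3 fell and 58 were not called. Over all genes by their brightest probe set, 9.4% were called higher and 11.7% lower, against 26.5% and 3.61% of the 83. The median log2 fold change of the 83 genes was 0.08, and that of all genes was -0.02. The median size of a difference, whatever its sign, was 0.13, and 19 of the 83 genes differed by at least 0.2. Ndufv3 was the only gene of the 83 whose means differed by at least 0.5.

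**Figure D1:**
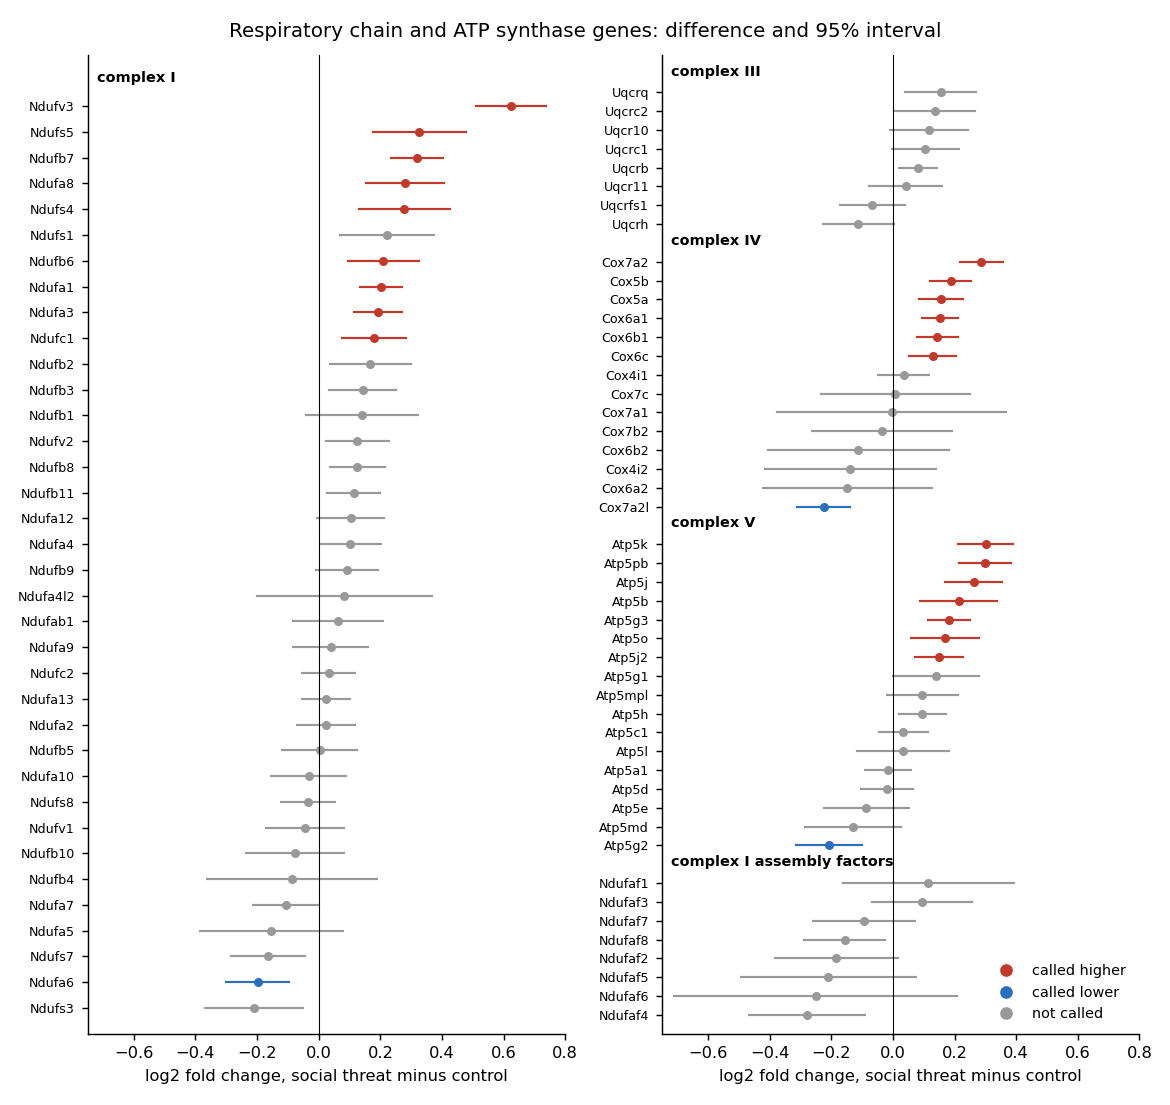
Log2 fold change of each of the 83 genes, social threat minus control, with its 95% interval from the limma fit (2 pools per group), grouped by complex and coloured by the call. Ndufv3 stands apart at 0.62, the called rises of complexes I, IV and V lie between 0.13 and 0.33 otherwise, and no gene of complex III was called.

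These genes are bright on the array, where small differences pass the test more often. Of the 2272 genes on the array with a mean level at or above 9.31, the lower quartile of the 83, 25% were called higher and 27% lower, a reference chosen after the values were seen. Among the 62 respiratory genes that reach this level, 32.3% were called higher and 4.84% lower. Pools of the groups did not overlap for 42 genes that were higher and 17 that were lower in social threat (71.1% of the 83), against 58.2% of all genes. Among the 62 bright respiratory genes the share was 77.4%, against 81.5% of the 2272 bright genes.

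**Figure D2:**
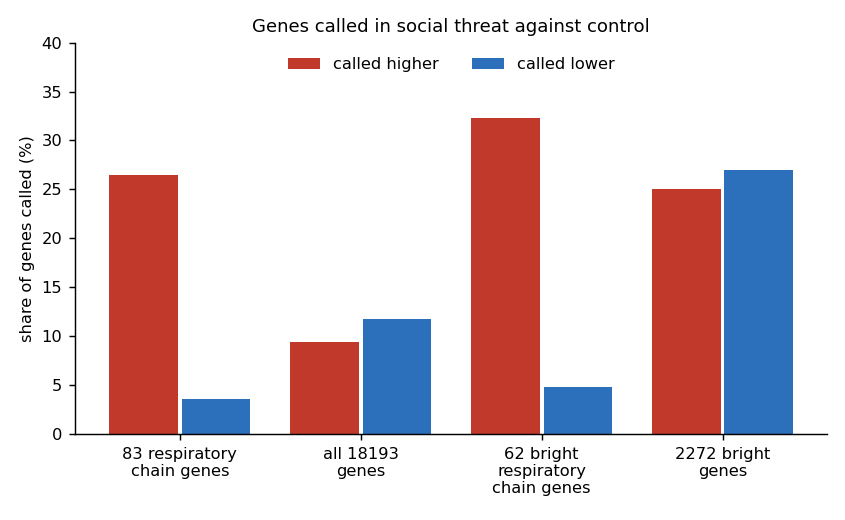
Share of genes called higher or lower in social threat by limma, for the 83 respiratory genes, for all genes, for the 62 respiratory genes with a mean level of at least 9.31 and for the 2272 genes of that brightness. Falls make up 3.61% of the 83 genes and 4.84% of the 62 bright ones, against 27% of the bright genes.

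The calls rest on few arrays. Without social threat pool 1 the counts were 9 rises and 1 fall, and without social threat pool 2 they were 8 rises and 0 falls. The share of all genes called in either direction was also smaller in these fits, 10.6% and 10.2%, against 21.1% with all 4 pools. Without control pool 1 there were 24 rises and 3 falls, and without control pool 2 there were 22 rises and 11 falls, with 21.1% and 24.9% of all genes called. Each of these fits has a group of 1 pool, which is assumed to vary like the other group's 2 pools, so a call kept or lost there is a weak check. Of the 25 called genes, 7 stayed called whichever pool was left out. These were Ndufv3, Ndufb7, Ndufa1, Cox7a2, Cox5b, Atp5k and Atp5pb. In a fit without the trend of variance with level, Ndufv3 alone was called (limma adjusted p = 0.0086), with 4689 of 45037 probe sets called in that fit.

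Markers of several cell types moved between the same pools, far more than the respiratory genes did. All 11 measured immature neutrophil genes were called higher, with a median log2 fold change of 1.94 and linear levels summing to 77163 and 77543 in the social threat pools, against 40739 and 40072 in the control pools. Of 9 proliferation genes 7 were called higher (median 2.12, Mki67 by 2.25), and their sums were 11430 and 11229 in social threat against 6783 and 6559 in control. Of 10 erythroid genes 8 were called higher (median 1.59), with sums of 2151 and 2063 in social threat against 1055 and 973 in control. Genes called lower were 6 of 7 for B cells (median -1.11), 7 of 7 for T cells (-1.003), 5 of 6 for NK cells (-0.60), 7 of 7 for conventional dendritic cells (-1.12) and 7 of 9 for red pulp macrophages (-0.52). Of 7 CD11b+ myeloid genes 4 were called higher and 2 lower (median 0.16), with sums of 73023 and 72261 in social threat against 66398 and 67495 in control. Itgam, which encodes the CD11b used to isolate the cells, had the largest rise of that list and stood at 11.64 and 11.59 in social threat against 10.47 and 11.01 in control. Csf1r and Csf3r, receptors of macrophage and granulocyte growth factors, fell by 0.26 and 0.14, and Lyz2 was not called (0.07). The part of cell makeup in the respiratory differences was not tested, and in bulk samples fewer cells of a type and less RNA per cell cannot be told apart.

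Complex I held the largest difference. Ndufv3, an accessory subunit beside the flavin-bearing core of the peripheral arm, stood at 10.82 and 10.78 in the social threat pools and at 10.23 and 10.12 in the control pools. The pools of the groups lay well apart, and the gene rose by 0.62 (SE 0.05, 1.54-fold, limma adjusted p = 3.29e-05). Its 95% interval ran from 0.51 to 0.74. It was read by 1 probe set. Ndufs5, an accessory subunit of the membrane arm, stood at 9.52 and 9.40 in social threat against 9.18 and 9.09 in control. Ndufb7, on the intermembrane face of that arm, stood at 11.20 and 11.21 in social threat against 10.87 and 10.90 in control. Both rose, by 0.33 (SE 0.07) and 0.32 (SE 0.04). A second probe set of Ndufb7 rose by 0.40.

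A further 6 accessory genes of complex I rose by 0.18 to 0.28. Ndufa8, Ndufb6, Ndufa1, Ndufa3 and Ndufc1 belong to its membrane arm. Ndufs4 belongs to the peripheral arm, and its loss in mice is known to cause a severe encephalopathy. Ndufs4 stood at 9.20 and 9.21 in social threat against 8.99 and 8.87 in control, and Ndufa1 at 11.97 and 11.97 against 11.76 and 11.78. Ndufs5, Ndufa8, Ndufs4, Ndufb6, Ndufa3 and Ndufc1 lost their calls without social threat pool 2 (adjusted p 0.051 to 0.323). Without social threat pool 1 all of these but Ndufa3 lost them (0.158 or above), and Ndufa3 stayed just under the threshold (0.04997). Ndufc1 was also lost after a second quantile normalization (0.05004). Ndufa3 and Ndufs4 were not called when all probe sets of a gene were averaged (adjusted p = 0.261 and 0.0726).

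Ndufa6, a small LYR-motif protein of the peripheral arm, was the sole fall in complex I. It stood at 10.32 and 10.28 in social threat against 10.52 and 10.48 in control, a difference of -0.20 (SE 0.05, limma adjusted p = 0.0158) that was not called without social threat pool 1 (0.12) or pool 2 (0.225). The measured core subunits were not called. Ndufs1, which carries iron-sulfur clusters, had the largest positive difference among them at 0.22 (adjusted p = 0.0557), and Ndufs3 the most negative at -0.21 (adjusted p = 0.0841). Ndufs7, Ndufs8 and the accessory subunit Ndufa5, which with Ndufs3 lie next to the ubiquinone site, had values of -0.17, -0.03 and -0.15. By their brightest probe sets all 4 were thus negative. Grouping these 4 was chosen after their values were seen, and 0 of them were called, with 2 at an unadjusted p under 0.05. Ndufa5 stood at 8.55 and 8.56 in social threat against 8.88 and 8.54 in control, where a single control pool set the difference. A second, dimmer probe set of Ndufa5 went the other way, at 7.949 and 7.995 in social threat against 7.922 and 7.905 in control (0.06, not called).

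The other uncalled subunits of complex I had differences between -0.11 and 0.17. Ndufa4, once assigned to complex I and now known as a subunit of complex IV, stood at 10.62 and 10.63 in social threat against 10.56 and 10.49 in control (0.10, adjusted p = 0.178). Its paralog Ndufa4l2, known to be induced by hypoxia, stood at 4.71 and 4.86 in social threat against 4.64 and 4.76 in control, near the median probe set at 4.42. RMA values carry no detection calls, so such a level cannot be told from background. The probe set of Ndufb4 lay at 3.21 and 3.33 in social threat against 3.20 and 3.51 in control, below that median. A pair of brighter probe sets read Ndufb4 together with Ndufb4b and Ndufb4c and were not used for it. They stood at 10.06 and 10.06 in social threat against 9.99 and 9.85 in control, and at 9.55 and 9.48 in social threat against 9.50 and 9.44 in control, and neither was called (0.14 and 0.05).

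The 8 complex I assembly factors, which help build the complex and are not part of it, had 0 limma calls, with 2 at an unadjusted p under 0.05. Of these 8 genes, 6 had negative differences, with a median of -0.17 over the 8. Ndufaf4 came closest to a call, at 7.21 and 7.23 in social threat against 7.50 and 7.50 in control (-0.28, SE 0.08, adjusted p = 0.0534). Ndufaf6, at 4.30 and 4.56 in social threat against 5.01 and 4.35 in control, had the widest interval, from -0.71 to 0.21.

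Complex III showed no called gene. Of its 8 measured subunits 6 had positive and 2 negative differences, with a median of 0.09 and a range of -0.11 to 0.16. Uqcrq, a small subunit of the complex, stood at 10.38 and 10.32 in social threat against 10.24 and 10.15 in control (0.16, adjusted p = 0.0737). Uqcrfs1, the Rieske iron-sulfur protein that passes electrons towards cytochrome c, stood at 10.14 and 10.10 against 10.18 and 10.19 (-0.07, adjusted p = 0.444). The core proteins Uqcrc1 and Uqcrc2 differed by 0.11 and 0.14. A second probe set of Uqcrc2, of similar brightness, differed by -0.0085 with overlapping pools. Over the 8 genes the 95% intervals stayed between -0.23 and 0.27, and 3 of them had an unadjusted p under 0.05. Additional probe sets of Uqcrb and Uqcr10 were called higher, by 0.27 and 0.29, and that of Uqcrh lower, by -0.20.

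In complex IV, 6 widely expressed subunits rose. Of its 14 genes 8 had positive and 6 negative differences, with a median of 0.02. Cox7a2 stood at 12.01 and 11.97 in social threat against 11.70 and 11.70 in control and rose by 0.29 (SE 0.03, 1.22-fold, limma adjusted p = 0.000226). Cox5b stood at 12.36 and 12.36 against 12.20 and 12.14, and Cox5a at 11.71 and 11.71 against 11.55 and 11.55. These structural subunits rose by 0.19 and 0.16. Cox6a1, Cox6b1 and Cox6c rose by 0.15, 0.14 and 0.13. Pools did not overlap for these 6 risen genes, but a call on 2 pools per group leaves little room for overlap. Of all genes at or above 9.31, 81.5% did not overlap either. A second probe set of Cox6b1 did overlap, at 11.82 and 11.74 in social threat against 11.75 and 11.74 in control (0.04, not called). Cox4i1, a regulatory subunit that binds ATP, stood at 12.07 and 12.01 in social threat against 12.04 and 11.97 in control and was not called (0.03, interval -0.05 to 0.12). Without social threat pool 1, adjusted p was 0.124 for Cox5a, 0.0691 for Cox6a1, 0.162 for Cox6b1 and 0.248 for Cox6c, and without social threat pool 2 it was 0.114, 0.0346, 0.0761 and 0.23 for the same genes. Cox6c was also lost without control pool 1 (0.0526) and after a second quantile normalization (0.0799), and Cox6b1 when all its probe sets were averaged (0.0745).

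Cox7a2l, a relative of Cox7a2 known to join complexes III and IV into supercomplexes, went the other way. It stood at 11.23 and 11.22 in social threat against 11.48 and 11.41 in control and fell by 0.23 (SE 0.04, limma adjusted p = 0.003). All 3 of its probe sets were called lower, between -0.28 and -0.23, whereas both probe sets of Cox7a2 rose by 0.29. Leaving out social threat pool 2 gave Cox7a2l an adjusted p of 0.062.

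The forms of complex IV subunits known from muscle, lung or testis gave low readings without a call. Cox7a1, the heart and muscle form, stood at 3.60 and 3.24 in social threat against 3.64 and 3.20 in control. Cox7b2, a testis form, stood at 2.87 and 3.07 against 3.06 and 2.95, and Cox4i2, the lung form, at 4.59 and 4.48 against 4.72 and 4.63. The muscle form Cox6a2 and the testis form Cox6b2 read between 5.88 and 6.46 in the 4 pools. The 5 differences lay between -0.15 (Cox6a2) and -0.004 (Cox7a1), and the pools of the groups overlapped for 4 of these genes, with Cox4i2 the exception. Cox7c, a widely expressed subunit, read 6.12 and 6.05 in social threat against 6.04 and 6.12 in control. Its second probe set was dimmer, at 3.57 and 3.61 in social threat against 3.69 and 3.59 in control. Cox6c, another widely expressed subunit, read 11.41 or above in every pool. Whether the probe sets of Cox7c read its main message was not tested.

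**Figure D3:**
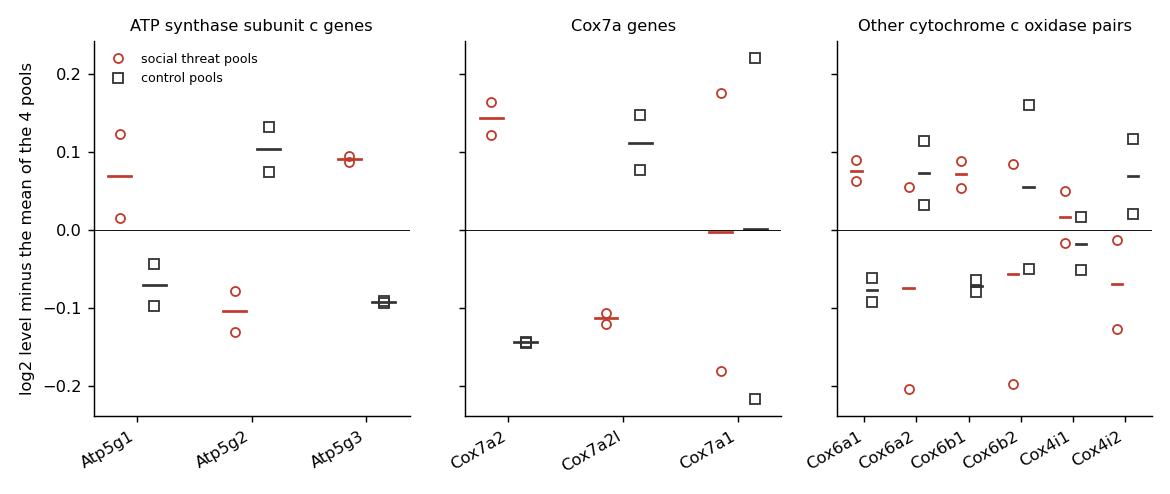
Log2 level of related genes in each pool, minus the gene's own mean over the 4 pools (points are pools, bars are group means, 2 pools each). Atp5g3 and Cox7a2 lie above their control pools in social threat, Atp5g2 and Cox7a2l lie below them, and the pools of Cox7a1, Cox6a2 and Cox6b2 overlap.

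Complex V combines F1, which holds the catalytic head, with a membrane rotor and a peripheral stalk. Below, stalk stands for the peripheral stalk, and the central stalk (Atp5c1, Atp5d and Atp5e) is counted with F1. Its largest rises were in genes of the stalk and the membrane part. Atp5k, subunit e of the membrane part, whose upstream window is shown above, stood at 11.14 and 11.11 in social threat against 10.84 and 10.80 in control and rose by 0.30 (SE 0.04, 1.23-fold, limma adjusted p = 0.000658). Atp5pb, subunit b of the stalk, stood at 11.74 and 11.83 against 11.48 and 11.49, and rose by 0.30 (SE 0.04). Atp5j, coupling factor 6 of the stalk, rose by 0.26, Atp5o, which joins stalk and head, by 0.17, and Atp5j2, subunit f, by 0.15. Of the 9 genes for the stalk and the membrane part without subunit c, 5 rose and 8 had positive differences, with a median of 0.15. Among the 5 genes of F1 only the catalytic beta subunit Atp5b rose, by 0.21, and the median was -0.02. This grouping was chosen after the values were seen, and the difference between the 2 groups was not tested.

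Atp5b stood at 11.08 and 11.06 in social threat against 10.77 and 10.95 in control, so control pool 1 weighed most in its difference, and without that pool its adjusted p was 0.0507. Atp5a1, the alpha subunit of the head, stood at 11.72 and 11.69 in social threat against 11.74 and 11.70 in control, and its interval ran from -0.09 to 0.06. Without social threat pool 1 adjusted p was 0.205 for Atp5b, 0.374 for Atp5o and 0.235 for Atp5j2, and without pool 2 it was 0.176, 0.168 and 0.119 for these genes, with 0.0503 for Atp5j. Atp5o was also lost without control pool 2 (0.0932) and after a second quantile normalization (0.0631). Atp5j2 was lost there too (0.0505), when all its probe sets were averaged (0.42) and without probe sets ending in _s_at or _x_at (0.199).

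Subunit c, whose ring turns in the membrane, is encoded by Atp5g1, Atp5g2 and Atp5g3, which are known to give the same mature protein with different import sequences. Their messages went different ways. Atp5g3 stood at 11.88 and 11.89 in social threat against 11.71 and 11.70 in control and rose by 0.18 (SE 0.03, limma adjusted p = 0.00265). Atp5g2 stood at 10.21 and 10.16 against 10.42 and 10.37 and fell by 0.21 (SE 0.05, limma adjusted p = 0.0163). Atp5g1 stood at 9.45 and 9.34 against 9.28 and 9.23, without overlap but not called (0.14, adjusted p = 0.192). Both calls were lost without social threat pool 1 (0.0537 for Atp5g3 and 0.112 for Atp5g2) and without pool 2 (0.0637 and 0.23), and Atp5g2 was not called when its 3 probe sets were averaged (0.387).

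**Figure D4:**
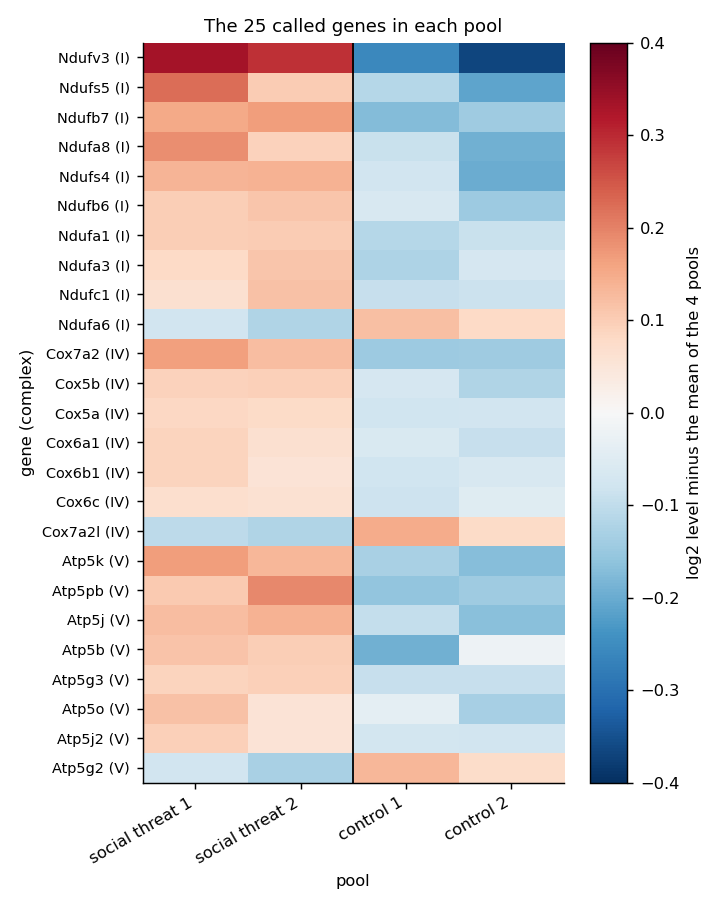
Log2 level of each of the 25 called genes in each pool, minus the gene's mean over the 4 pools, with the complex in brackets. The 22 genes that rose are above their mean in both social threat pools, and Ndufa6, Cox7a2l and Atp5g2 are below it there.

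Gene by gene, pools of the same group were mostly close to each other. The median absolute difference of the 83 genes was 0.045 between the social threat pools and 0.06 between the control pools. Between the group means it was 0.13. Averaged over the 83 genes, the pools stood at 9.753 and 9.734 in social threat against 9.719 and 9.658 in control. On that average the control pools lay further from each other than control pool 1 lay from either social threat pool. In complex IV, control pool 1 (8.93) read above social threat pool 2 (8.91). That mean gives the dim forms equal weight, such as Cox7a1, at 3.64 in control pool 1 and 3.24 in social threat pool 2. Gene by gene, pools of the groups did not overlap for 6 complex IV genes that were higher and 2 that were lower, and overlapped for 6. Control pool 1 read above control pool 2 for 64 of the 83 genes, by a median of 0.05, and social threat pool 1 above pool 2 for 55, by 0.03. Of the 46 genes with more than 1 probe set, 0 had probe sets called in both directions, but 16 had probe sets of both signs. Most probe sets were not called, so the 0 is a weak check. Of the 81 additional probe sets, 19 were called higher and 4 lower. Over all 45037 probe sets, 7.09% were called higher and 8.67% lower. A dim additional probe set of Ndufa12, an accessory subunit of the peripheral arm, was called lower at 5.77 and 5.31 in social threat against 6.20 and 6.64 in control, while the gene's 3 brighter probe sets, between 0.04 and 0.10, were not called.

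Other genes of oxidative metabolism were counted by lists written with earlier results of these data known. Complex II, succinate dehydrogenase, had 1 rise among 4 genes, Sdhd by 0.17. Its median of 0.09 was close to that of complexes I, III and V, whereas that of complex IV was 0.02. The 14 genes of complex IV include the muscle, lung and testis forms, at -0.15 (Cox6a2) to -0.004 (Cox7a1). Of the 14, 42.9% were called higher, against 25% in complex I, 0% in complex III and 41.2% in complex V. Of 6 further genes outside the symbol rule, which include cytochrome c (Cycs, 0.10) and Cyc1 of complex III (0.08), Atpif1, an inhibitor of the ATP synthase, rose by 0.25 and the other 5 were not called. The mitochondrially encoded ND5 of complex I was not called (-0.17).

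Of 8 genes for carriers, porins and uncoupling proteins, 3 rose, 2 fell and 3 were not called. The outer membrane porins Vdac1, Vdac2 and Vdac3 rose by 0.35, 0.24 and 0.23. The ADP/ATP carrier Slc25a4 fell by 0.49 and the phosphate carrier Slc25a3 by 0.16. A second ADP/ATP carrier, Slc25a5, stood at 12.24 and 12.19 in social threat against 12.21 and 12.23 in control and was not called (-0.01), nor were Ucp1 and Ucp3. In coenzyme Q synthesis 4 of 11 genes fell, with Coq10b by 0.69, and 1 rose, Coq4 by 0.50, for a list median of -0.21. Assembly factors of complexes III to V fell for 4 of 29 genes, among them Ttc19 of complex III by 0.84, and rose for 1, Cmc2 by 0.55 (median -0.02). Among 7 complex I assembly factors outside the symbol rule, Tmem186 fell by 0.49 (median -0.11).

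The citric acid cycle had 1 rise, Dld by 0.38, and 2 falls, Suclg2 by 0.43 and fumarase (Fh1) by 0.26, among 13 genes (median -0.01). For pyruvate entry, 3 of 11 genes rose and 1 fell (median -0.05). Pyruvate dehydrogenase kinases, which switch pyruvate dehydrogenase off, differed, with Pdk3 higher by 0.70 and Pdk1 lower, at -0.64, and Mpc1 of the pyruvate carrier rose by 0.22. Of 12 genes for upkeep and transcription of mitochondrial DNA, Polg2, the accessory subunit of the mitochondrial DNA polymerase, fell by 0.83 and the other 11 were not called (median -0.08). Among 11 nuclear regulators, Pprc1, a relative of the coactivator PGC-1, fell by 0.64 and Myc by 0.58. Nrf1 and Gabpa, whose motifs were searched above, were not called (-0.08 and 0.16).

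**Figure D5:**
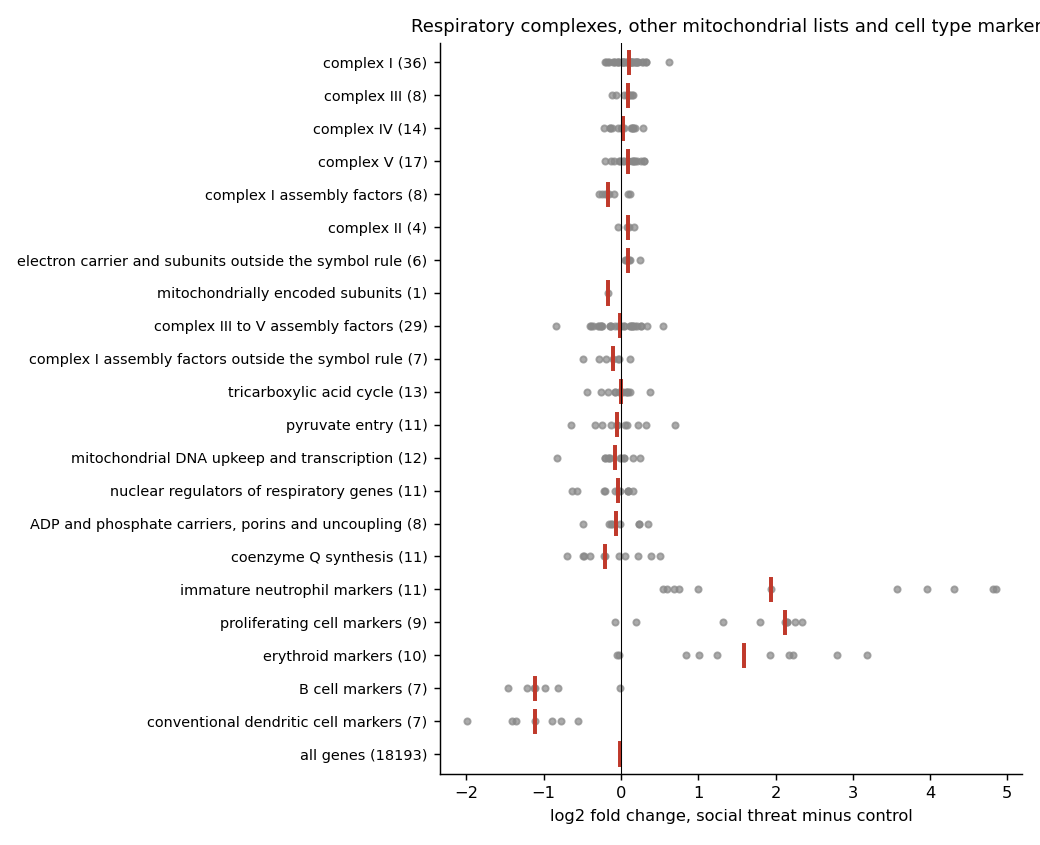
Log2 fold change, social threat minus control, of the genes of each complex, of other mitochondrial lists and of cell type markers (grey points, number of genes in brackets, red bar the median). All genes are drawn as their median alone, at -0.02. Complexes I, III and V have medians of 0.09 to 0.10 and complex IV has 0.02, against 1.94 for immature neutrophil markers and -1.11 for B cell markers. The genes of complex IV include its muscle, lung and testis forms.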

How the data were processed

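Each array gave a value per probe set. The authors made these log2 values with RMA before they were deposited, per the submitters' processing notes, and the version is not stated. RMA corrects background, gives the arrays a common distribution and compresses differences of dim probe sets. Values ran from 2.26 to 14.25, and array medians from 4.41 to 4.43. They were used as deposited, and the number of arrays limits the precision. Of 45037 probe sets, 34945 had 1 symbol, 932 several and 9160 none. All 83 genes matched RefSeq by Entrez identifier, and 0 symbols changed. The groups were compared with limma 3.58.1 in R 4.3.3 (lmFit, eBayes with a mean-variance trend, 2 residual and 7.14 prior degrees of freedom, two-sided), with adjustment over all probe sets. Code was tested on simulated data. P-values set a difference against the spread between pools, and most of the weight in that spread came from other probe sets of similar level. Genes with full statistics were, per complex, the 3 largest and 3 smallest called differences, falls, and related isoforms. Motifs were searched on both strands of the upstream windows, and the form of the NRF1 motif was changed once after its shares were seen. Alternatives changed the variance model, scaling, filter, probe set choice, pool block or pools used. The genes and lists were chosen with earlier results of these data known. No source used here gives the order of array processing, and a batch aligned with social threat cannot be told apart from it.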

Additional observations from a re-analysis of the deposited data

Results flagged for a closer look

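Probe sets shared by several genes were not used above. Of the 10 that read a gene of the respiratory chain, 2 were called higher in limma, where 7.09% of all probe sets were called higher. The probe set shared by Ndufs5 and its pseudogene Ndufs5-ps stood at 9.95 and 9.92 in social threat against 9.67 and 9.51 in control, a difference of 0.35 (adjusted p = 0.00461). The probe set shared by Ndufa11b and Ndufa11, a membrane subunit of complex I, stood at 9.21 and 9.15 in social threat against 8.98 and 8.91 in control, a difference of 0.23 (adjusted p = 0.035). Signals of the genes that share a probe set cannot be told apart.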

How the results depend on the processing

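The median log2 fold change of the 83 genes stayed between 0.04 and 0.10 under all alternatives. Leaving out 1 pool at a time gave 8 to 24 rises and 0 to 11 falls, with 3 to 15 called genes in complex I, 0 to 2 in complex III, 3 to 7 in complex IV, 2 to 8 in complex V and 0 to 1 among the assembly factors. Without the variance trend, where 13.9% of all genes were called, there were 1 rise and 0 falls, with 1 call in complex I, 0 in complex IV and 0 in complex V. Falls numbered 5 without dim probe sets, 5 without probe sets ending in _s_at or _x_at and 5 with the pool number as replicate block. Complex III had 1 call in each of these 3 settings and after a second quantile normalization, and 2 when all probe sets of a gene were averaged. The assembly factors had 1 call without dim probe sets and 1 with the block. Of all genes, 37.6% were called without dim probe sets, where fewer were tested, 20.1% without probe sets ending in _s_at or _x_at and 23.5% with the block, against 21.1% in the reported fit. The causes of the other shifts were not tested. Averaging kept 18 of the 22 rises and 2 of the 3 falls and turned the sign of 9 genes. Same-numbered pools deviated together with r = 0.052 over probe sets, and no label says that the numbers pair them. The block kept all 22 rises and 3 falls and called 8168 probe sets, against 7099 without it. Of 307 checks of the genes with full statistics 54 lost a call. The 307 include genes not called in the reported fit, which had no call to lose. A reversal was counted only if the gene was called in at least 1 of the 2 fits, and 0 were found. Signs of uncalled genes did turn, as for Atp5g1 on averaging (0.14 to -0.012) and Cox7a1 without control pool 1 (-0.004 to 0.215).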
